A study of Mus musculus with 2 samples.

Results

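The 9 genes described here are markers of T cells that keep a naive or memory state: Tcf7, Lef1, Bach2, Satb1, Klf2, Id3, Il7r, S1pr1 and Slamf6. They were chosen by symbol, and 9 of 9 were found among the 33696 mouse features of the count matrix. They were followed in the CD8, CD4, Tregs and NK classes of the deposited annotation, in leukocytes from MC38 tumours. MC38 is a mouse colon carcinoma line, grown here under the skin of mice labelled Human FCR mice, which carry human Fc receptors.

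There were 4 treatments. Those named GA-aFuc, GITR/Syn GA-aFuc or N297A are antibodies to mouse GITR, a costimulatory receptor of T cells, with a human IgG1 Fc part, and Untreated mice got PBS. The deposited annotation calls GA-aFuc agonist and Fc-enhanced, GITR/Syn GA-aFuc non-agonist and Fc-enhanced, and N297A agonist and Fc-null. Antibodies were injected 2 times, 3 days apart, at 100 µg per mouse, and CD45+ tumour cells were sorted 4 days after treatment. Library 2 pooled 6 hashed mice: 2 were given GA-aFuc, 2 GITR/Syn GA-aFuc, 1 was given N297A and 1 was Untreated. The ages of the mice are not given in the labels.

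Of 10476 annotated cells in library 2, 542 were called CD8, 64 CD4, 24 Tregs and 604 NK. CD8 cells numbered 146 and 63 with GA-aFuc, 66 and 68 with GITR/Syn GA-aFuc, 67 with N297A and 132 in the Untreated mouse. Their median depth ran from 6696 to 9255 UMIs in 5 mice, while 1 GITR/Syn GA-aFuc mouse stood at 13151.5. NK cells numbered 125 and 49, 93 and 74, 135 and 128 in the same order of treatments. CD4 cells numbered 5 to 19 per mouse. All annotated cells of a mouse held 17176544 to 25808043 UMIs. The top hashtag of a cell was that of its mouse in 10476 of 10476 cells. Libraries 1 and 2 shared 34 cell barcodes.

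Naive and central memory T cells circulate through blood and lymph nodes, and stem-like exhausted T cells in tumours keep part of the same gene programme. TCF-1 (encoded by Tcf7) and LEF-1 (Lef1) are HMG-box transcription factors that hold T cells in this state, and NK cells use the same factors during development. Effector and terminally exhausted T cells lose this programme as they gain granzymes and inhibitory receptors.

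Among the regulators, Tcf7 (ENSMUSG00000000782) and Lef1 (ENSMUSG00000027985) bind DNA and act with β-catenin or on their own. Bach2 (ENSMUSG00000040270) encodes a repressor that restrains effector differentiation, and Satb1 (ENSMUSG00000023927) a chromatin organiser of T cell development. Klf2 (ENSMUSG00000055148) encodes a zinc finger factor that switches on S1pr1, and Id3 (ENSMUSG00000007872) an inhibitor of E proteins that marks memory precursors. Among the surface receptors, Il7r (ENSMUSG00000003882) encodes the IL-7 receptor α chain that keeps naive and memory cells alive. S1pr1 (ENSMUSG00000045092) encodes the sphingosine-1-phosphate receptor that lets cells leave tissue, and Slamf6 (ENSMUSG00000015314) a self-ligand receptor that marks stem-like exhausted cells.

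Because Tcf7 and Lef1 bind the core CTTTGA, the 250 bases before each annotated start were searched for it on both strands, where it reads TCAAAG on the other one. RefSeq (build GRCm38.p6, older than the GRCm39 build of the counts) held such a window for 8 of the 9 genes, in 16 entries; S1pr1 had none. The core stood in 2 entries, 1 of Lef1 and 1 of Bach2, against 13.8% of 32851 windows of all genes, a share that includes them. They are shown here because they are the only members whose window holds the core, with the core in capitals; the Lef1 window lies at chr3:131156044-131156293 on the plus strand and the Bach2 window at chr4:32417185-32417434 on the plus strand.
Lef1: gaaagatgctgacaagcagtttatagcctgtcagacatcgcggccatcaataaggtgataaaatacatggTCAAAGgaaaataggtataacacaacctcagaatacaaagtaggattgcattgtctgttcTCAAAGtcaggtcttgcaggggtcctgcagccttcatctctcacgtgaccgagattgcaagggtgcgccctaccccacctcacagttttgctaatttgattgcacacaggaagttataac
Bach2: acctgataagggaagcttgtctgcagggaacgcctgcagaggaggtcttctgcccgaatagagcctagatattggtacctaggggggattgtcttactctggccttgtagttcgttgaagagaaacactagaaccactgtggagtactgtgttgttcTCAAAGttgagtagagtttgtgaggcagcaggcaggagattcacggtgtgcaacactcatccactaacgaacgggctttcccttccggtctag
The FOXO core TGTTTAC, read on both strands, stood in 0 of the 16 entries, against 3.17% of all windows. The short KLF core CACCC, also on both strands, stood in 12 of 16, in 5 genes, against 52.0% of all windows. A match describes these letters only and is no measure of binding.

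The lymphocyte classes carried the 9 genes in different combinations. Levels are UMIs per 1000000 mapped UMIs (CPM) of the summed cells of a class in a mouse, given as mean ± SD over the 6 mice. The classes are taken to rest on the same cells' expression, so differences between them are described and not tested. Il7r set CD8 cells apart from NK cells: it averaged 206 ± 27.8 CPM in CD8 cells and 6.37 ± 3.45 CPM in NK cells. The 2 ranges did not overlap, and CD8 cells were higher in 6 of 6 mice. S1pr1 averaged 18.0 ± 13.5 CPM in CD8 cells and 5.25 ± 2.96 CPM in NK cells, and was higher in CD8 cells in 6 of 6 mice although the ranges overlapped.

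The transcription factors ran the other way. Tcf7 averaged 19.1 ± 9.56 CPM in CD8 cells and 30.6 ± 10.7 CPM in NK cells, and NK cells were higher in 6 of 6 mice. Bach2 averaged 192 ± 72.5 CPM in CD8 cells and 333 ± 58.2 CPM in NK cells, also higher in NK cells in 6 of 6 mice. Satb1 averaged 294 ± 93.2 CPM in CD8 cells and 496 ± 102 CPM in NK cells, with the same count. Lef1 averaged 62.5 ± 20.6 CPM in CD8 cells and 104 ± 24.2 CPM in NK cells, and NK cells were higher in 5 of 6 mice. The ranges of these 4 genes overlapped between the classes.

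CD4 cells had the highest mean of every member but Satb1, yet their spread over mice was wide, with 5 to 19 cells a mouse. Tcf7 averaged 66.5 ± 53.4 CPM, Lef1 145 ± 123 CPM and Il7r 427 ± 201 CPM in CD4 cells. Their ranges overlapped those of the next class for each of the 9 genes. Klf2 averaged 55.5 ± 16.2 CPM in CD8 cells and 69.4 ± 16.8 CPM in NK cells, which does not separate them beyond the spread. Slamf6 averaged 12.2 ± 9.92 CPM in CD8 cells and 4.00 ± 1.14 CPM in NK cells. Droplets with at most 100 UMIs held 14.9 CPM of Slamf6 and 116 CPM of Klf2. How much of such RNA entered the cells was not measured, so the part of background in these levels was not tested. Id3 was close to absent, with 7 UMIs in all CD8 cells, 7 in NK cells and 4 in CD4 cells. Macrophages held 0.4 CPM of Tcf7, 0.4 CPM of Lef1, 1.4 CPM of Satb1 and 3.08 CPM of S1pr1. The other members were not limited to lymphocytes, since macrophages held 146 CPM of Klf2, 56.4 CPM of Bach2, 49.9 CPM of Il7r, 19.9 CPM of Slamf6 and 4.00 CPM of Id3.

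**Figure D1:**
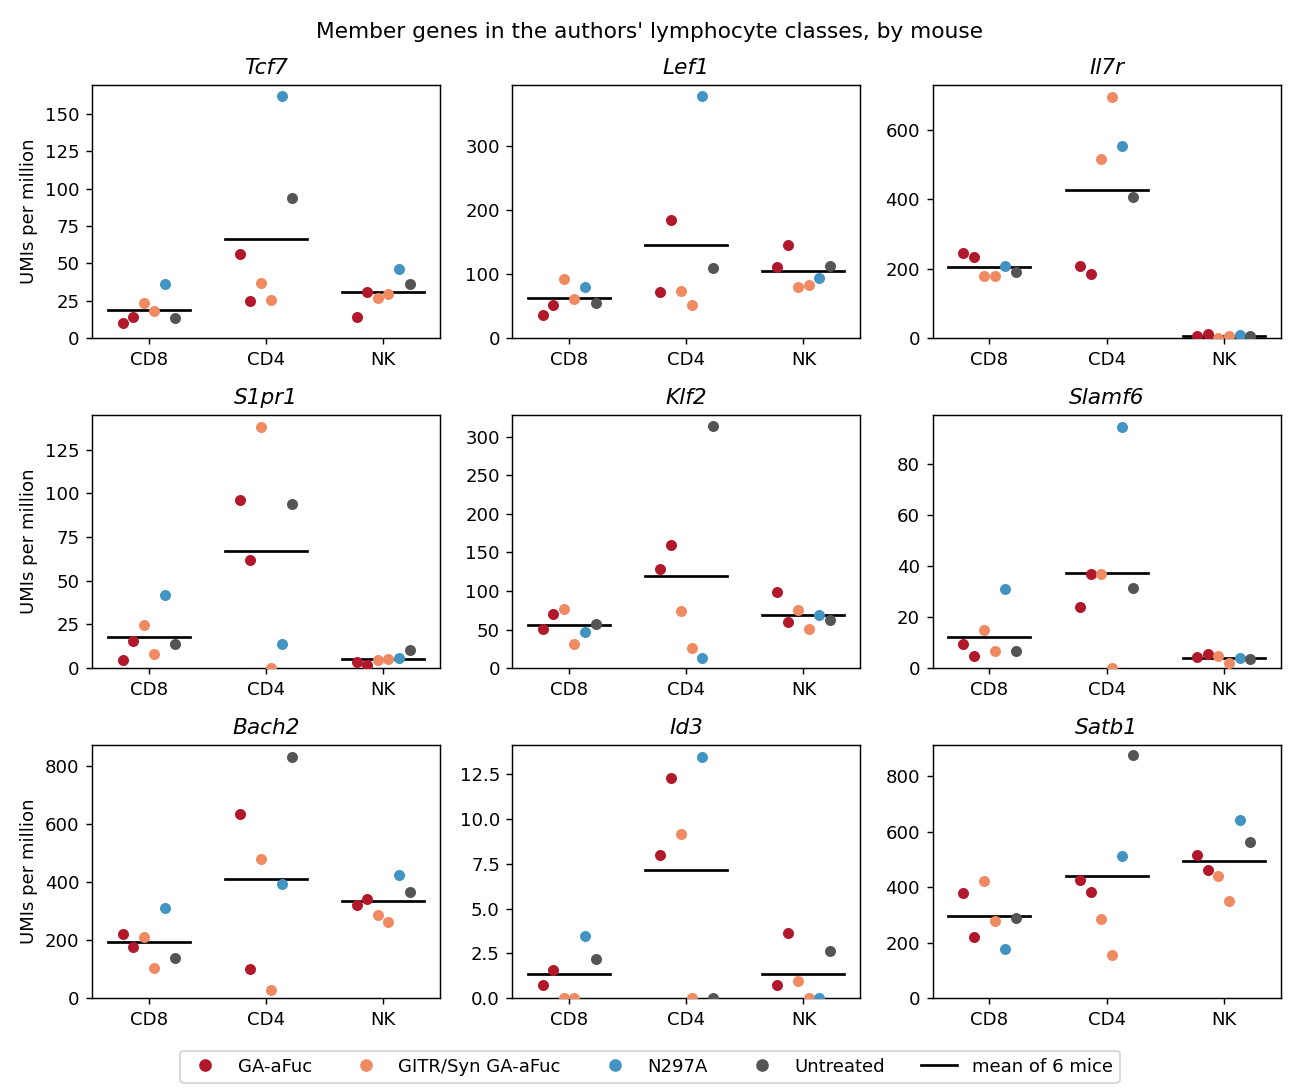
CPM of each member gene (y axis) in the summed CD8, CD4 and NK cells of each of 6 mice (points, coloured by treatment), with the mean of the mice as a black line. Il7r lies at 179 to 244 in CD8 cells and at or under 10.98 in NK cells, while CD4 points scatter widely.

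The share of cells with a UMI gave the same order once cells were thinned to 3000 UMIs, which left out 10 CD8, 25 NK and 39 macrophages as too shallow. A Tcf7 UMI stood in 4.32% of 532 CD8 cells and 11.6% of 579 NK cells, against 0.193% of 5686 macrophages. Without thinning the shares were 8.86% of CD8 cells, 24.0% of NK cells and 0.576% of macrophages. The median depths before thinning were 8559 UMIs in CD8 cells, 8872 in NK cells and 14384.5 in macrophages. An Il7r UMI stood in 35.7% of CD8 cells, 0.691% of NK cells and 10.9% of macrophages. The NK share of Il7r thus lay below that of macrophages. Macrophages held 49.9 CPM of Il7r, so their share is no measure of background for this gene. The part of background in the NK share was not tested. Unthinned, Il7r stood in 58.5%, 3.64% and 26.7% of these classes. An S1pr1 UMI stood in 6.02% of CD8 cells and 2.59% of NK cells, against 0.827% of macrophages; unthinned, the shares were 8.86%, 4.30% and 3.37%.

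Within the CD8 class, 1 of the 5 clusters of the deposited annotation, cluster 23, held most of the Tcf7 and S1pr1 UMIs. It contained 92 of 542 CD8 cells, 83.7% of the Tcf7 UMIs and 79.0% of the S1pr1 UMIs of the class. Its share was 45.4% for Lef1, 39.7% for Slamf6, 28.1% for Bach2, 27.8% for Klf2, 22.2% for Satb1 and 13.2% for Il7r, so most UMIs of those 6 genes lay outside it. Since clusters are taken to rest on the same cells' expression, what follows describes the cluster and tests nothing. Tcf7 stood at 96.8 and 164 CPM in the cluster 23 cells with GA-aFuc, at 53.8 and 155 CPM with GITR/Syn GA-aFuc, at 187 CPM with N297A and at 166 CPM in the Untreated mouse. The other CD8 cells of the same mice held 3.12 and 0 CPM, 16.3 and 0 CPM, 4.20 CPM and 0.788 CPM. Cluster 23 was the highest CD8 cluster for Tcf7 in 6 of 6 mice.

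S1pr1 averaged 114 ± 63.5 CPM in cluster 23, against 4.32 ± 3.13 CPM in the other CD8 cells, and cluster 23 was highest in 6 of 6 mice. Lef1 averaged 249.97 ± 118 CPM against 34.8 ± 19.6 CPM, Bach2 487 ± 112 CPM against 151 ± 59.7 CPM and Satb1 650.1 ± 183 CPM against 255 ± 99.3 CPM, each above the rest in 6 of 6 mice. Klf2 averaged 139 ± 53.0 CPM against 42.7 ± 19.7 CPM, and Slamf6 39.1 ± 28.5 CPM against 7.85 ± 9.12 CPM, each above the rest in 5 of 6 mice. Il7r was spread over all CD8 clusters: it averaged 270 ± 154 CPM in cluster 23 and 195 ± 35.4 CPM in the rest, higher in 4 of 6 mice.

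Several genes outside the 9 followed the same division. Pdcd1, encoding the inhibitory receptor PD-1, averaged 100.0 ± 36.5 CPM in cluster 23 and 351 ± 39.5 CPM in the rest, lower in 6 of 6 mice. Havcr2 (TIM-3) averaged 26.5 ± 24.7 CPM against 150 ± 29.9 CPM, and Id2, which opposes Id3 in effector fate, 234 ± 43.9 CPM against 550.0 ± 43.9 CPM. The proliferation gene Mki67 averaged 28.6 ± 20.4 CPM against 217 ± 56.6 CPM. Tox, a factor of exhausted cells, averaged 287 ± 151 CPM against 252 ± 117 CPM, higher in 5 of 6 mice. Gzmb averaged 1383 ± 620 CPM in cluster 23 and 2586 ± 972 CPM in the rest, lower in 6 of 6 mice. Cd69, a residency and early activation marker, averaged 228 ± 77.4 CPM against 121 ± 23.3 CPM, higher in 5 of 6 mice. Ccr7 did not divide the clusters, with 25.5 ± 24.5 CPM against 26.9 ± 27.1 CPM.

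Cluster 23 was also the CD8 cluster with the fewest Cd8a-positive cells. A Cd8a UMI stood in 57.6% of its cells, against 88.0% to 99.1% in the other 4 clusters, a Trdc UMI (the γδ T cell receptor δ chain) in 10.9%, against at most 1.79% in the others. A Cd4 UMI stood in 5.43% of its cells, fewer than the 12.0% of cluster 38. Its 59 cells with a Cd8a or Cd8b1 UMI held 112 CPM of Tcf7 (95% exact Poisson interval 80.9 to 152), and its 33 cells without held 172 CPM (120.0 to 240). All 34 Trdc UMIs and all 13 Cd4 UMIs of the cluster lay in those 33 cells. Lef1 stood at 142 CPM (106 to 185) in the 59 cells and at 438 CPM (352 to 539) in the 33. Slamf6 ran the other way, at 50.8 CPM (30.6 to 79.3) in the 59 cells and 19.7 CPM (5.36 to 50.4) in the 33. These intervals cover counting error only.

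**Figure D2:**
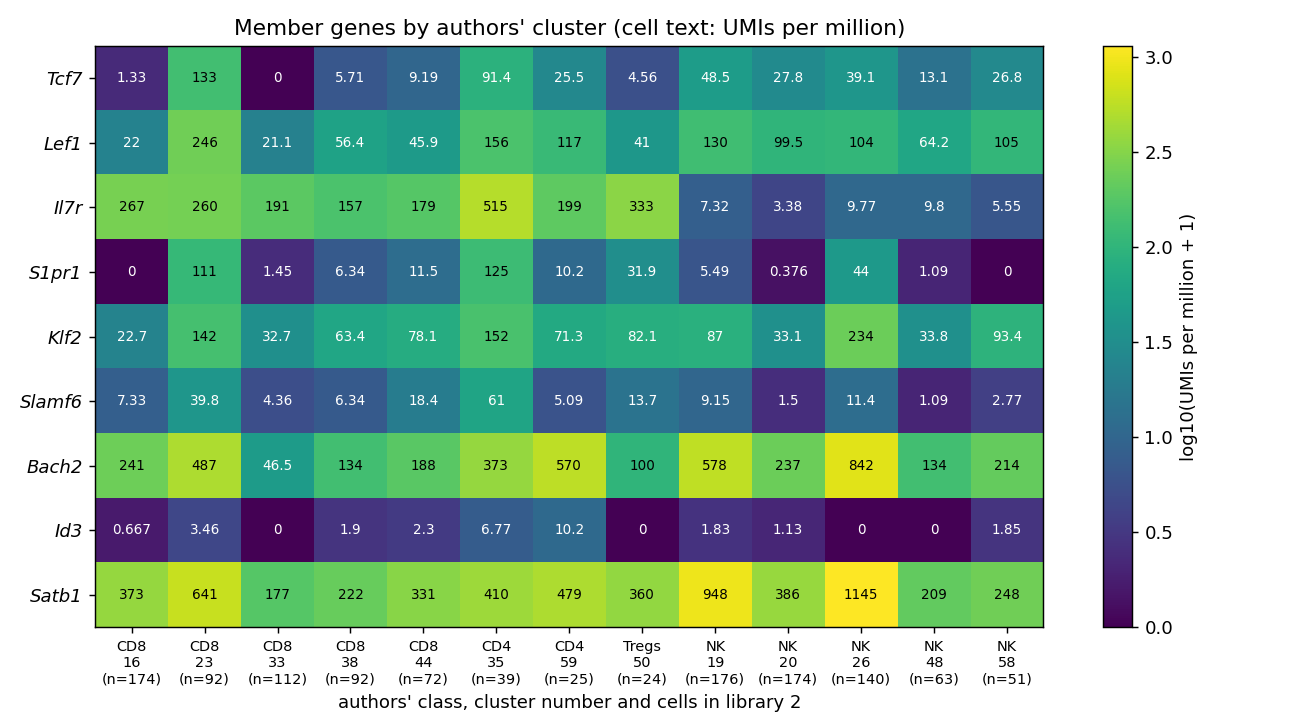
Pooled CPM of each member gene (rows) in each CD8, CD4, Tregs and NK cluster of the deposited annotation (columns, with cells in library 2), coloured on a log10(CPM + 1) scale. Tcf7 reads 133 in CD8 cluster 23 and at most 9.19 in the other CD8 clusters, and S1pr1 and Klf2 are highest among NK clusters in cluster 26.

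Single cells of the CD8 class showed the same co-occurrence. Unthinned, 38 of its 48 cells with a Tcf7 UMI lay in cluster 23, so this split largely repeats the cluster and is no separate support. At 3000 UMIs a cell, the 23 CD8 cells with a Tcf7 UMI held 275 CPM of S1pr1 (166 to 430.0) and the 509 without held 14.4 CPM (9.03 to 21.8), higher in 6 of 6 mice. Lef1 stood at 362 CPM (234 to 535) with a Tcf7 UMI and at 58.3 CPM (46.8 to 71.7) without, and Bach2 at 638 CPM (463 to 856) and 197 CPM (175 to 221), both higher in 6 of 6 mice. Gzmb, encoding granzyme B, stood at 623 CPM (451 to 839) with a Tcf7 UMI and at 2392 CPM (2315 to 2471) without, lower in 6 of 6 mice. Pdcd1, Havcr2 and Id2 were likewise lower in 6 of 6 mice. In NK cells Gzmb and Pdcd1 were also lower beside Tcf7, while Lef1 and Bach2 were not higher. Gzmb stood at 1876 CPM (1691 to 2075) in the 67 NK cells with a Tcf7 UMI and at 3152 CPM (3064 to 3242) in the 512 without, lower in 5 of 6 mice. Pdcd1 had 0 UMIs with a Tcf7 UMI (0 to 18.4 CPM) and 17 without (11.1 CPM, 6.45 to 17.7), and these intervals overlap. Unthinned, Pdcd1 stood at 2.34 CPM (0.637 to 5.99) with a Tcf7 UMI and at 17.0 CPM (13.4 to 21.1) without, lower in 6 of 6 mice. Lef1 stood at 84.6 CPM (49.3 to 135) with a Tcf7 UMI and at 113 CPM (97.1 to 131) without. Bach2 stood at 418 CPM (333 to 517) and 486 CPM (451 to 522) in these NK cells.

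NK cells had their own cluster of high member levels, cluster 26, with 140 of 604 cells. Klf2 averaged 264 ± 111 CPM there and 51.0 ± 20.9 CPM in the other NK cells, higher in 6 of 6 mice. S1pr1 averaged 44.6 ± 24.2 CPM in cluster 26 against 1.24 ± 1.11 CPM in the rest, Bach2 849 ± 98.5 CPM against 281 ± 52.2 CPM, and Satb1 1079 ± 233 CPM against 435 ± 95.5 CPM, each higher in 6 of 6 mice. Lef1 did not take part, with 103 ± 34.3 CPM in cluster 26 and 104 ± 25.4 CPM in the rest. Tcf7 averaged 42.6 ± 17.5 CPM against 29.7 ± 10.9 CPM, higher in 5 of 6 mice. Xcl1, a chemokine that draws cDC1, averaged 462 ± 694 CPM in cluster 26 and 1454 ± 376 CPM in the rest, lower in 5 of 6 mice. In NK cluster 48, which held 46.8 CPM of Cd3e, Tcf7 stood at 13.1 CPM.

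The CD4 class split in 2. Cluster 35, with 39 cells, held 91.4 CPM of Tcf7, 125 CPM of S1pr1 and 515 CPM of Il7r, and cluster 59, with 25 cells, held 25.5, 10.2 and 199 CPM of the same genes. Tcf7 was higher in cluster 35 in 6 of 6 mice, but cluster 59 held only 5 Tcf7 UMIs in all. It held 0 in GA-aFuc replicate 2, both GITR/Syn GA-aFuc mice and the Untreated mouse, where any Tcf7 UMI in cluster 35 reads as higher. Bach2 and Satb1 did not follow this split. Bach2 averaged 323 ± 251 CPM in cluster 35 and 443 ± 569 CPM in cluster 59, higher in cluster 35 in 3 of 6 mice. Satb1 averaged 434 ± 392 CPM and 532 ± 350 CPM, higher in cluster 35 in 2 of 6 mice. Neither cluster was purely CD4 by its markers. Cluster 59 held 357 CPM of Cd8a against 163 CPM of Cd4, and cluster 35 held 173 CPM of Trdc and 57.6 CPM of Foxp3 beside 180 CPM of Cd4. Of the 64 CD4 cells, 17 had a Cd8a UMI. Il7r stood at 109 CPM (61.2 to 180.4) in those 17 and at 497 CPM (426 to 576) in the other 47. Bach2 ran the other way, at 707 CPM (573 to 863) in the 17 and 353 CPM (294 to 420.2) in the 47.

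The question of treatment was asked of the summed cells of each mouse, with edgeR's quasi-likelihood test and Benjamini-Hochberg adjustment over all genes tested in a class. None of the 9 genes passed an adjusted p under 0.05 in CD8, NK or CD4 cells, in any of the contrasts fitted. The CD8 and NK fits have 2 residual degrees of freedom, so the lone N297A and Untreated mice are taken to vary as much as the paired ones do. The p-values rest on the spread within the paired mice, which edgeR moderates over all genes tested. The lone N297A and Untreated mice add nothing to that spread. In summed cells, fewer cells with an RNA and less of it per cell cannot be told apart.

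In CD8 cells 8 members passed the filter on low counts and Id3 did not. For GA-aFuc against N297A, 0 of 8 passed, beside 0.0117% of all 8570 genes tested. For GA-aFuc against Untreated, GA-aFuc against GITR/Syn GA-aFuc, GITR/Syn GA-aFuc against Untreated and N297A against Untreated, 0 of 8 passed in each, beside 0.0% of all genes. For both Fc-enhanced antibodies against N297A and Untreated, 0 of 8 passed and 0.0117% of all genes did. With an unadjusted p under 0.05 stood 5 of 8 members for GA-aFuc against N297A, where 4.83% of all genes did. That count was 1 of 8 without GA-aFuc replicate 1 and 1 of 8 by DESeq2. By DESeq2, 92 of all 8570 genes had such a p, and the share of all genes was lower without GA-aFuc replicate 1 too. With each GITR/Syn GA-aFuc mouse left out in turn, the member count and the share of all genes both rose. The main count was 3 of 8 for N297A against Untreated, beside 3.38% of all genes. By DESeq2 it was 1 of 8 there, beside 44 of 8570 genes. The main count was 1 of 8 for GA-aFuc against GITR/Syn GA-aFuc, beside 3.63%. It was 0 of 8 for GA-aFuc against Untreated, GITR/Syn GA-aFuc against Untreated and the Fc-enhanced contrast, where 2.45%, 3.87% and 3.99% of all genes did. Without the Untreated mouse the Fc-enhanced contrast had 5 of 8. Without that mouse the share of all genes was slightly higher too. DESeq2 called 0 members in each of the 6 contrasts, and 0 to 7 genes in all.

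The N297A mouse was the highest of the 6 for 4 of the 8 tested members in CD8 cells. It enters both contrasts with the larger counts. How many of all genes were highest in this mouse was not counted, so this is not read as a trait of the members. The CD8 cells of this mouse also had the lowest median depth, 6696 UMIs. Tcf7 stood at 10.1 and 14.0 CPM with GA-aFuc, 23.2 and 18.0 CPM with GITR/Syn GA-aFuc, 36.3 CPM with N297A and 13.1 CPM in the Untreated mouse. The GA-aFuc and Untreated mice were low and the N297A mouse high. The log2 fold change of this gene was -1.62 ± 0.48 (SE) for GA-aFuc against N297A (edgeR, adjusted p = 0.870) and 1.43 ± 0.53 for N297A against Untreated (edgeR, adjusted p = 0.998). S1pr1 stood at 4.34 and 15.6 CPM with GA-aFuc, 24.9 and 7.89 CPM with GITR/Syn GA-aFuc, 41.5 CPM with N297A and 13.9 CPM in the Untreated mouse. Its log2 fold change for GA-aFuc against N297A was -2.27 ± 0.71 (edgeR, adjusted p = 0.930), and with no filter on low counts it was -2.25 and passed at an adjusted p of 0.0126, beside 0.291% of all genes then tested.

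Slamf6 stood at 9.40 and 4.67 CPM with GA-aFuc, 14.9 and 6.77 CPM with GITR/Syn GA-aFuc, 31.1 CPM with N297A and 6.56 CPM in the Untreated mouse. The log2 fold change was -1.98 ± 0.69 for GA-aFuc against N297A (edgeR, adjusted p = 0.995). Bach2, the fourth with its highest value in the N297A mouse, stood at 219 and 176 CPM with GA-aFuc, 210.4 and 103 CPM with GITR/Syn GA-aFuc, 310 CPM with N297A and 136 CPM in the Untreated mouse. Its log2 fold change was 1.15 ± 0.40 for N297A against Untreated (edgeR, adjusted p = 0.998). The N297A mouse had 25.4% of its CD8 cells in cluster 23, the GA-aFuc mice 11.6% and 17.5%, the GITR/Syn GA-aFuc mice 25.8% and 17.6%, and the Untreated mouse 13.6%.

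Lef1 stood at 35.4 and 51.4 CPM with GA-aFuc, 92.8 and 60.9 CPM with GITR/Syn GA-aFuc, 79.6 CPM with N297A and 54.7 CPM in the Untreated mouse. The GA-aFuc mice held the 2 lowest values. The log2 fold change was -0.90 ± 0.36 against N297A (edgeR, adjusted p = 0.995) and -0.84 ± 0.29 against GITR/Syn GA-aFuc (edgeR, adjusted p = 0.9995). The first of these turned to 2.72 when cluster 23 was left out (edgeR, adjusted p = 0.702), where the N297A mouse held 433 CPM of Lef1 in cluster 23 and 4.20 CPM in its other CD8 cells. The Fc-enhanced contrast of Lef1 was -0.23 ± 0.24 with cluster 23 and 1.67 ± 0.37 without it (edgeR, adjusted p = 0.822). Those 4.20 CPM of Lef1 in the N297A mouse rest on few UMIs and enter both contrasts without cluster 23. The CD8 cells outside cluster 23 held 27.3 to 56.9 CPM in the other mice. Satb1 was lowest in the N297A mouse, at 176 CPM, beside 380 and 219 CPM with GA-aFuc, 423 and 279 CPM with GITR/Syn GA-aFuc and 289 CPM in the Untreated mouse. Il7r varied least, at 244 and 233 CPM with GA-aFuc, 179 and 179 CPM with GITR/Syn GA-aFuc, 208 CPM with N297A and 192 CPM in the Untreated mouse. Klf2 ranged from 31.6 to 76.2 CPM, both of them with GITR/Syn GA-aFuc.

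**Figure D3:**
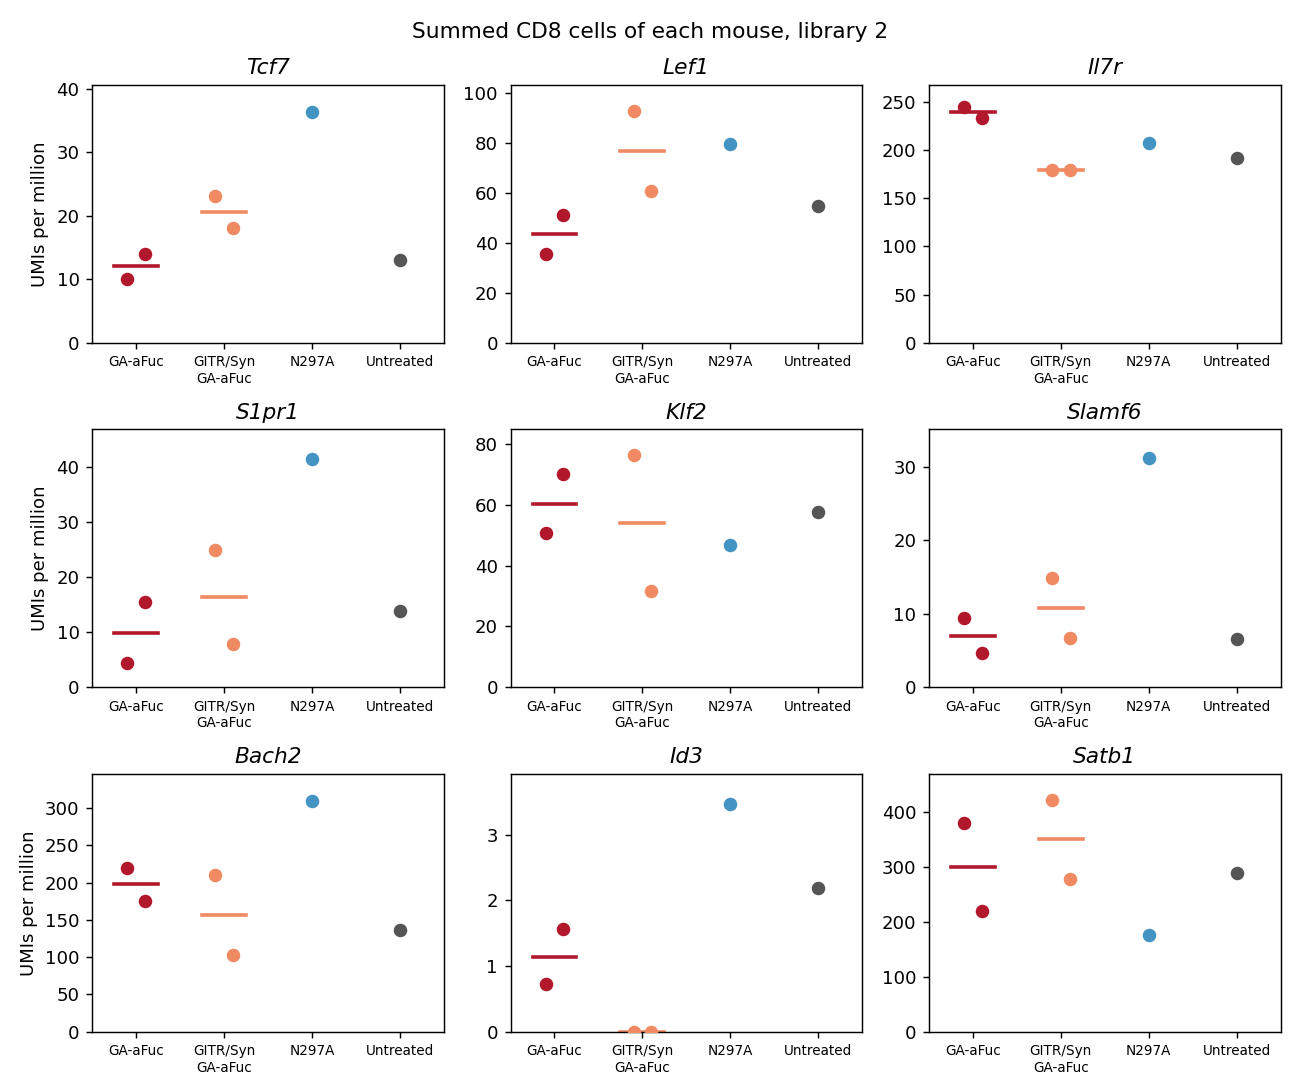
CPM of each member gene (y axis) in the summed CD8 cells of each mouse of library 2 (points), by treatment (x axis), with a line at the mean of paired mice. The N297A mouse is highest for Tcf7 (36.3), S1pr1 (41.5), Slamf6 (31.1) and Bach2 (310) and lowest for Satb1 (176). How many of all genes are highest in this mouse was not counted. Id3 holds 7 UMIs in all.

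RNA of other cells varied between these CD8 samples as well. A list of 10 macrophage and antigen presentation genes, of which 0 were undetected, summed to 899 and 851 CPM with GA-aFuc, 2612 and 1184 CPM with GITR/Syn GA-aFuc, 1098 CPM with N297A and 790.4 CPM in the Untreated mouse. Within cluster 23 the sum was 900 and 1057 CPM with GA-aFuc, 6183 and 6333 CPM with GITR/Syn GA-aFuc, 2891 CPM with N297A and 1238 CPM in the Untreated mouse. Its part in the member levels was not tested. Within cluster 23 alone, an alternative chosen after seeing the data, 0 of 7 members passed in any contrast. For the Fc-enhanced contrast 3 of those 7, Il7r, S1pr1 and Lef1, had an unadjusted p under 0.05, beside 5.18% of all 3072 genes. Il7r was the strongest of these, at -1.21 ± 0.36 (edgeR, adjusted p = 0.358).

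In NK cells 7 members passed the filter and Id3 and Slamf6 did not. Members that passed numbered 0 of 7 in each contrast. The shares of all 9329 genes tested that passed were 0.0536% for GA-aFuc against Untreated, 0.0429% for GA-aFuc against N297A, 0.0% for GA-aFuc against GITR/Syn GA-aFuc, 0.129% for GITR/Syn GA-aFuc against Untreated, 0.0107% for N297A against Untreated and 0.268% for both Fc-enhanced antibodies against N297A and Untreated. With an unadjusted p under 0.05 stood 3 of 7 members in the last of these, beside 9.44% of all genes. That count was 0 of 7 without the N297A mouse and 0 of 7 without clusters 20 and 48. Without clusters 20 and 48, 233 of all 7528 genes had such a p, and the share of all genes was lower without the N297A mouse too. The main count was 1 of 7 for GA-aFuc against N297A, for GA-aFuc against GITR/Syn GA-aFuc and for GITR/Syn GA-aFuc against Untreated. Beside these stood 4.72%, 4.41% and 7.46% of all genes. The count was 0 of 7 for GA-aFuc against Untreated and N297A against Untreated, beside 4.86% and 2.29%. DESeq2 called 0 members in NK cells, and 1 to 11 genes in all.

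Tcf7 stood at 14.1 and 31.1 CPM in the NK cells with GA-aFuc, 26.9 and 29.3 CPM with GITR/Syn GA-aFuc, 46.3 CPM with N297A and 36.2 CPM in the Untreated mouse. The 4 Fc-enhanced mice all lay below the other 2 mice. The Tcf7 log2 fold change for the Fc-enhanced antibodies against N297A and Untreated was -0.74 ± 0.28 (edgeR, adjusted p = 0.393). Satb1 stood at 518 and 461 CPM with GA-aFuc, 441 and 348 CPM with GITR/Syn GA-aFuc, 642 CPM with N297A and 564 CPM in the Untreated mouse, and the groups again did not overlap. The log2 fold change of this gene was -0.40 ± 0.12 (edgeR, adjusted p = 0.290). Bach2 stood at 319 and 342 CPM with GA-aFuc, 286 and 261 CPM with GITR/Syn GA-aFuc, 423 CPM with N297A and 366 CPM in the Untreated mouse. Its log2 fold change was -0.34 ± 0.12 (edgeR, adjusted p = 0.374). Bach2 parted the mice in the same way. The share of all genes tested that did so was not counted, so this separation is not read as a trait of the members.

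Lef1 did not follow them in NK cells, at 110.3 and 145 CPM with GA-aFuc, 79.6 and 82.7 CPM with GITR/Syn GA-aFuc, 93.4 CPM with N297A and 113 CPM in the Untreated mouse. Its log2 fold change for GA-aFuc against GITR/Syn GA-aFuc was 0.58 ± 0.19 (edgeR, adjusted p = 0.998). Klf2 ranged from 50.2 to 99.1 CPM, S1pr1 from 1.83 to 10.6 CPM and Il7r from 0.926 to 10.98 CPM over the 6 mice. The list of 10 genes of other cells summed to 623 and 716 CPM in the NK cells with GA-aFuc, 1112 and 509 CPM with GITR/Syn GA-aFuc, 1164 CPM with N297A and 903 CPM in the Untreated mouse, with 0 of 10 undetected. The median depth of NK cells was 9032 and 9570 UMIs with GA-aFuc, 9296 and 11856.5 UMIs with GITR/Syn GA-aFuc, 6477 UMIs with N297A and 6666 UMIs in the Untreated mouse. It thus parted the mice as Tcf7, Satb1 and Bach2 did, and the part of neither was tested.

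**Figure D4:**
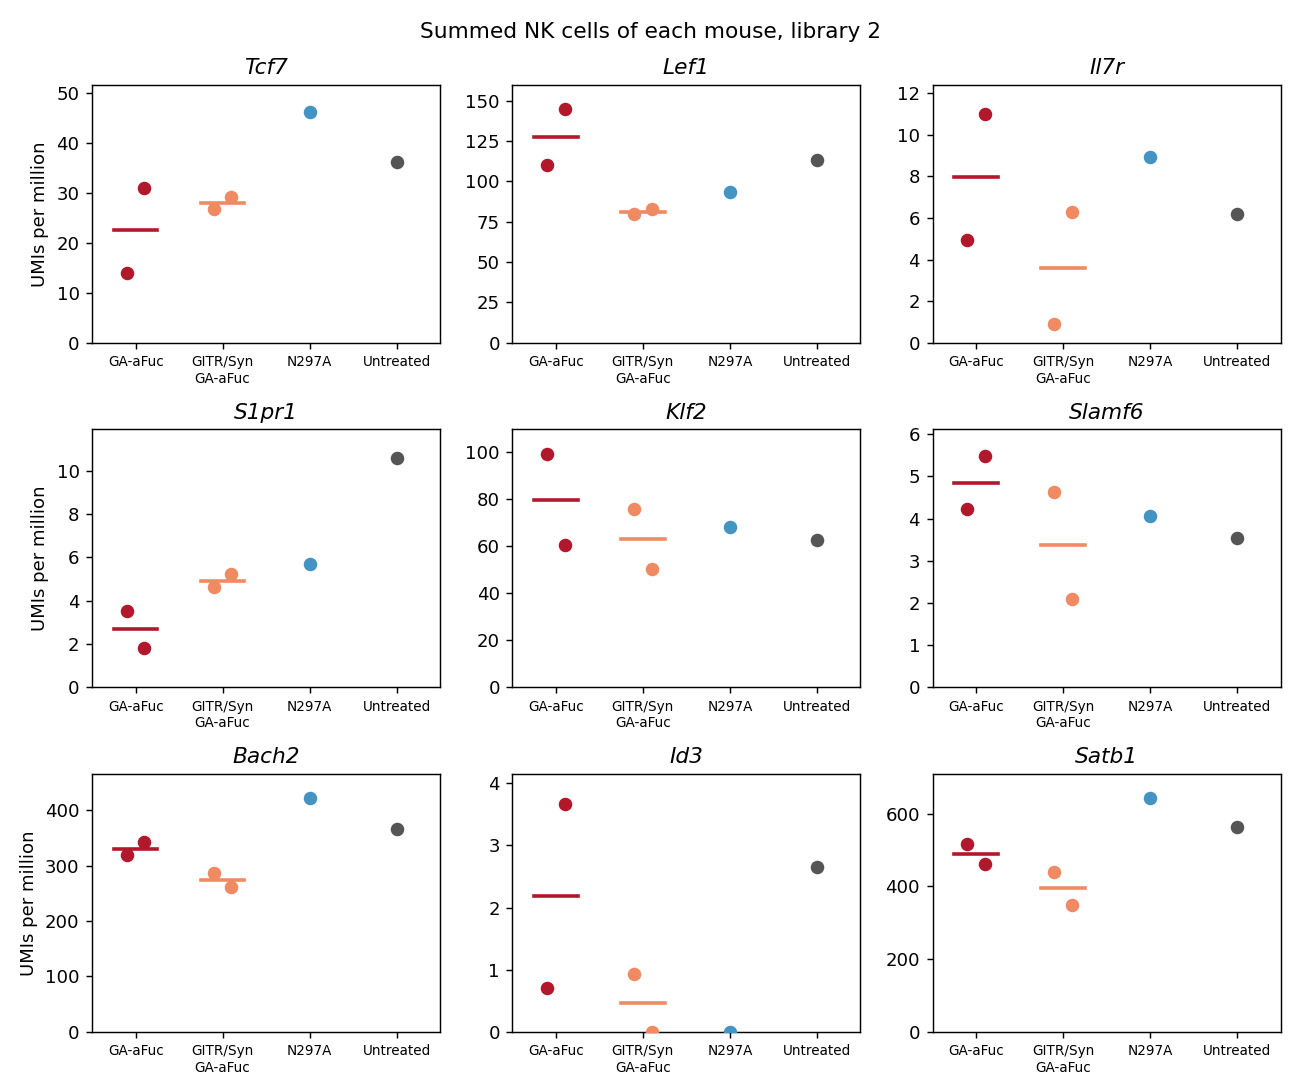
CPM of each member gene (y axis) in the summed NK cells of each mouse of library 2 (points), by treatment (x axis), with a line at the mean of paired mice. The 4 Fc-enhanced mice lie below the N297A and Untreated mice for Tcf7 (14.1 to 31.1), Bach2 (261 to 342) and Satb1 (348 to 518). How many of all genes part the mice in this way was not counted.

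CD4 cells could be fitted only for GA-aFuc against N297A, over the 3 mice with at least 10 cells and with 1 residual degree of freedom. Of 6 members tested 0 passed, beside 0.794% of 2142 genes, and 3 had an unadjusted p under 0.05, beside 4.86%; DESeq2 called 0. Lef1 stood at 72.1 and 185 CPM with GA-aFuc and 378 CPM in the N297A mouse, a log2 fold change of -1.61 ± 0.58 (edgeR, adjusted p = 0.382). Il7r stood at 208 and 185 CPM with GA-aFuc and 553 CPM in the N297A mouse, a log2 fold change of -1.48 ± 0.58 (edgeR, adjusted p = 0.546). Klf2 ran the other way, at 128 and 160.0 CPM against 13.5 CPM, which is 1 UMI in the N297A mouse (3.28 ± 1.51, edgeR, adjusted p = 0.874). Gzmb, of the effector genes, passed at 3.31 ± 0.75 (edgeR, adjusted p = 0.00267). Apoe, a macrophage gene, passed too, at 3.23 ± 0.67 (edgeR, adjusted p = 0.000525). Neither call held by DESeq2, which called 0 of all genes, or with equal cells per mouse, where 0 genes were called higher and 1 lower. The 10 genes of other cells summed to 1145 and 4887 CPM in the CD4 cells with GA-aFuc and 1092 CPM in those of the N297A mouse, and their part was not tested.

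A further list of 20 naive and memory genes, among them Ccr7, Foxo1, Bcl2 and Xcl1, was read beside the members. Of these, 17 were tested in CD8 cells, 14 in NK cells and 9 in CD4 cells, and 0 passed in any contrast. In CD8 cells their median log2 fold change for GA-aFuc against N297A was -0.27, beside 0.01 over all genes, and that of the 8 members was -0.76. For N297A against Untreated the medians were 0.60 for the list and 0.83 for the members, beside 0.01 over all genes; both contrasts share the N297A mouse. Ccr7, the lymph node homing chemokine receptor, stood in the first at -2.11 ± 0.50 (edgeR, adjusted p = 0.476). In NK cells the medians for the Fc-enhanced antibodies against N297A and Untreated were -0.29 for the list and -0.40 for the members, beside 0.02 over all genes. Bcl2, a survival gene, stood at -0.34 ± 0.11 (edgeR, adjusted p = 0.338) in that contrast. Of 20 effector and exhaustion genes, 19 were tested in CD8 and 20 in NK cells and 0 passed; Gzmb came nearest in CD8 cells, at 1.07 ± 0.15 in the Fc-enhanced contrast (edgeR, adjusted p = 0.0719).

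The shares of the high-member clusters could be read over all 12 mice of both libraries, 3 a treatment, since the annotation lists the cells of library 1. Cluster 23 made up 14.2 ± 2.98% of CD8 cells with GA-aFuc, 18.6 ± 6.75% with GITR/Syn GA-aFuc, 21.8 ± 3.51% with N297A and 16.1 ± 3.98% in Untreated mice (SD, n = 3 each). The mean was 16.4% over the 6 Fc-enhanced mice and 19.0% over the other 6, and an exact two-sided permutation within libraries gave p = 0.378 (adjusted over 12 clusters, 0.453). NK cluster 26 made up 18.6 ± 4.94% of NK cells with GA-aFuc, 19.8 ± 3.09% with GITR/Syn GA-aFuc, 26.1 ± 0.607% with N297A and 25.3 ± 0.974% in Untreated mice (SD, n = 3 each). The 6 Fc-enhanced mice lay between 14.3% and 24.0% and the other 6 between 24.2% and 26.7%, without overlap. Of the 12 clusters 8.33% parted the mice so, and that share is cluster 26 alone. The exact two-sided permutation within libraries gave p = 0.00444, the smallest that 225 arrangements can give, and 0.0533 adjusted over 12 clusters. This grouping was chosen after the values were seen. Within library 1 the means were 16.9% and 25.8%, and within library 2 they were 20.4% and 25.4%. Leaving out each mouse in turn, the adjusted exact p ran from 0.0267, without the GA-aFuc mouse at 14.3%, to 0.160. It was under 0.05 also without the GITR/Syn GA-aFuc mouse at 21.6% (0.04). Each omission leaves fewer arrangements, and the adjustment also depends on the other clusters. The size of these p-values therefore does not show how strongly cluster 26 separates. In library 2 the depth of NK cells parted the same mice, and its part was not tested.

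**Figure D5:**
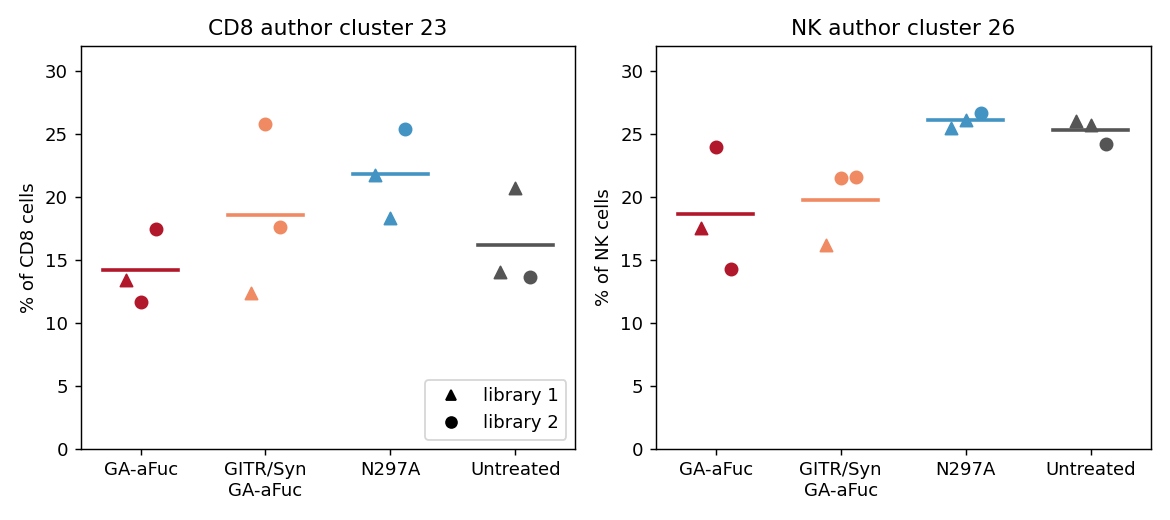
Share of CD8 cells in cluster 23 (left) and of NK cells in cluster 26 (right), in percent (y axis), for each of 12 mice by treatment (x axis), with triangles for library 1, circles for library 2 and a line at each treatment's mean. The treatments overlap on the left; on the right the Fc-enhanced mice reach 24.0% and the other mice start at 24.2%.

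Tregs were too few for a test, with 5 cells in the 4 Fc-enhanced mice, 8 with N297A and 11 in the Untreated mouse, and were pooled by treatment with exact Poisson intervals. Foxp3, their defining factor, had 0 UMIs in the 5 Fc-enhanced cells, for which a floor of 3 counts is 93.8 CPM, against 478 CPM (329 to 672) in the N297A mouse and 160.5 CPM (96.6 to 251) in the Untreated mouse. The exact Poisson interval of that 0 reaches 115 CPM and overlaps the interval of the Untreated mouse. Tcf7 had 1 UMI in the Fc-enhanced mice and 0 in both the N297A and the Untreated mouse, where the floor of 3 counts is 43.5 and 25.3 CPM. Il7r stood at 438 CPM (239 to 735), 333 CPM (211 to 500.3) and 304 CPM (213 to 421) in the Fc-enhanced, N297A and Untreated cells. Bach2 stood at 407 CPM (217 to 695) in the Fc-enhanced cells, 58.0 CPM (15.8 to 149) in the N297A cells and 42.2 CPM (13.7 to 98.5) in the Untreated cells. Satb1 stood at 782 CPM (506 to 1154), 348 CPM (223 to 518) and 253 CPM (171 to 362) in the same order. The Fc-enhanced values rest on few cells: the 1 cell of GA-aFuc replicate 2 gave 16 of the 25 Satb1 UMIs and 9 of the 14 Il7r UMIs, and the 2 cells of GA-aFuc replicate 1 gave 9 of the 13 Bach2 UMIs. The 5 Fc-enhanced cells come from 4 mice and hold no Foxp3 UMI, so these values describe cells called Tregs in the annotation. Of 2 other Treg markers, they held 313 CPM (150.0 to 575) of Il2ra, against 1087 CPM in the N297A and 515 CPM in the Untreated cells. They held 532 CPM (310 to 851) of Cd4, against 290 and 92.9 CPM in the same order.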

How the data were processed

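Leukocytes of library 2 were profiled by 3′ droplet RNA sequencing of hashed mice, per the labels' protocols. The authors deposited unnormalised counts of UMIs, one matrix of features by droplets, written by Cell Ranger 9.0.0 as its header states. Its reference joined GRCh38 and GRCm39, per the submitters' processing notes. Treatment, class and cluster follow the annotation the authors deposited; the clustering method and any doublet removal are not stated there or in the labels. Doublets were not called. Mice were read from 12 runs of rising barcodes in the annotation, each with 1 treatment, and checked by hashtag in library 2; the matrix of library 1 was not used here. Replicates are mice, and cells are not.

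Counts were summed per mouse and class (at least 10 cells) and fitted with edgeR 4.0.16 (filterByExpr, TMM, glmQLFit, glmQLFTest), adjusting over all genes tested. SE is the fold change divided by the root of F. CPM are counts per 1000000 mapped UMIs. Intervals are 95% exact Poisson and cover counting error only; floors are 3 counts. Shares used cells thinned to 3000 UMIs. The edgeR step was tested on simulated data. All 9 members are named; genes of the other lists were named by smallest p or as defining genes, partly after their values were seen. The members and gene lists were chosen with earlier results of these data known. Alternatives were RLE factors, DESeq2 1.42.0, other count filters, mouse features alone, equal cells, each mouse left out and clusters left out. Of the naive and memory list, 1 gene is not reported here.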

Additional observations from a re-analysis of the deposited data

Results flagged for a closer look

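The levels of 7 member and class pairs stood, in classes outside CD8, CD4, Tregs and NK cells, above the highest of those 4 classes. All levels are pooled CPM with 95% exact Poisson intervals. The highest of the 4 classes was CD4 in each case, and except for Klf2 in pDC the intervals overlapped those of CD4 cells. Tcf7 stood at 73.8 CPM (53.2 to 99.7, from 42 UMIs) in the 55 mregDC, against 65.1 CPM (44.5 to 91.9) in CD4 cells. Il7r stood at 390 CPM (340.2 to 445) in mregDC, against 389 CPM (335 to 448) in CD4 cells. Tcf7 was detected in mregDC of 6 of 6 mice, between 50.5 and 194 CPM, while Lef1 had 0 UMIs there and Cd3e had 1. Klf2 stood at 146 CPM (143 to 148) in macrophages and 218 CPM (162 to 287) in the 27 pDC. CD4 cells held 120.0 CPM (91.4 to 155) of it, and droplets with at most 100 UMIs held 116 CPM. Slamf6 stood at 52.3 CPM (27.0 to 91.4) in pDC, against 38.7 CPM (23.3 to 60.4) in CD4 cells. Id3 stood at 10.6 CPM (9.47 to 11.8) in monocytes and 8.78 CPM (2.85 to 20.5) in mregDC. CD4 cells held 8.14 CPM (2.22 to 20.8) of it, and those droplets held 17.9 CPM.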

How the results depend on the processing

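For 18 member differences with an unadjusted p under 0.05, 210 of 213 refits kept the direction and again did not pass an adjusted p under 0.05. The refits share most counts and sizes were not compared, so this is no separate support. Tcf7 in CD8 cells for N297A against Untreated ran from 0.154 to 2.18. Lef1 in NK cells for GA-aFuc against GITR/Syn GA-aFuc ran from 0.041 to 0.791. Lef1 in CD8 cells turned to 2.72 for GA-aFuc against N297A without cluster 23 and to 0.087 for GA-aFuc against GITR/Syn GA-aFuc in cluster 23 alone, and the cause was not tested. The number of members called stayed at its value in 169 of 170 refits; with no count filter it was 1 in CD8 cells for GA-aFuc against N297A (S1pr1, -2.25, edgeR adjusted p = 0.0126). Over the contrasts of a class, genes called numbered 0 to 1 in CD8 cells (8 to 53 without a filter, 0 to 7 by DESeq2, 2 to 43 and 3 to 56 without GITR/Syn GA-aFuc replicate 1 and 2), 0 to 25 in NK cells (14 to 110 without a filter, 1 to 11 by DESeq2, 5 to 86 without GA-aFuc replicate 2, 0 to 1 without clusters 20 and 48) and 17 in CD4 cells (12 without a filter, 0 by DESeq2, 1 with equal cells, 2 with a stricter filter).

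With each cell weighted equally, Tcf7 in CD8 cells was 28.9 CPM, and in NK cells S1pr1 was 12.7, Klf2 106, Slamf6 6.48, Bach2 485 and Satb1 701 CPM. Shares of cells with a UMI at 2000 UMIs were 6.81% for Tcf7 and 1.33% for S1pr1 in NK cells and 27.9% for Il7r in CD8 cells; unthinned, they were 8.86% for Tcf7 and 58.5% for Il7r in CD8 cells, and 24.0% for Tcf7, 4.30% for S1pr1 and 3.64% for Il7r in NK cells. The difference in the share of NK cluster 26, Fc-enhanced minus the other mice, was -6.50 percentage points with an adjusted permutation p of 0.0260 when libraries were not kept apart, and -7.46 to -5.52 leaving out each mouse (adjusted exact p 0.0267 to 0.160). The permutation p-values of these alternatives rest on different numbers of arrangements and are not comparable with each other. Alternatives by cluster 23, cluster 26 and for these shares were chosen after seeing the data. CD4 cells without a mouse, or without cells with a Cd8a UMI, could not be fitted. No paired analysis was possible because the mice carry no replicate numbers that the labels share across treatments. With 49 to 146 CD8 or NK cells a mouse and 1 N297A and 1 Untreated mouse, small differences were not detectable.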

Other observations

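Genes whose levels ran most like those of the members were sought over 13 sums of 1 cluster in 1 mouse with at least 30 cells, 4 of CD8 and 9 of NK cells, at log2(CPM + 1) and for 6079 genes of at least 20 CPM. No sum of CD8 cluster 23 was large enough to be among them. These points share mice and depth and fall into the 2 classes, so the correlations are given without a p. Bach2 and Satb1 were most like each other among the members (r = 0.968). Il7r ran opposite to Tcf7 (r = -0.73) and Lef1 (r = -0.77) over these points. Outside the members, Tcf7 was nearest to Cemip2 (r = 0.967), Lef1 to Pecam1 (r = 0.959) and Satb1 to Ugcg (r = 0.982).

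Il7r was also present in monocytes at 98.7 CPM and in cDC2 at 88.0 CPM, while cDC1 held 1.2 CPM. Bach2 stood at 179 CPM in pDC, 119 CPM in monocytes and 28.2 CPM in cDC1.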
